A study of Mus musculus with 8 samples.

Results

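The genes described here are the ligands, receptors and binding proteins of the insulin-like growth factor (IGF) system, 10 of the 46040 genes in the count table. They were taken by gene name and comprise *Igf1*, *Igf2*, *Igf1r*, *Igf2r* and the binding protein genes *Igfbp2* to *Igfbp7*. Each name matched 1 row, and all 10 genes were expressed above the low-count limit, a count scaled to library size (CPM) of 1 or more in 2 or more libraries, which 13542 genes reached.

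RNA was sequenced in 8 libraries from the left ventricles (LVs) of male mice on the C57BL/6 background, 5 to 7 months old, at day 14 of angiotensin II (angII) infusion through subcutaneous minipumps (0.1 mg/kg/h), which raises blood pressure and induces left ventricular hypertrophy (LVH). VEGFR-1 TK-/- mice lack the tyrosine kinase domain of VEGFR-1 in every cell that expresses its gene, *Flt1*, and the controls were their littermates. Both groups received angII, so no sample shows the IGF genes without pressure overload, and only mice alive on day 14 could be sampled. The labels disagree on genotype, since the genotype tag and library name of each sample name one genotype and its title the other. Libraries were grouped here by library name, as WT2 (genotype tag wildtype, n = 4) and dVEGFR1TK2 (genotype tag VEGFR1_TK -/-, n = 4). Log2 fold changes are given as dVEGFR1TK2 over WT2, and each would have the opposite sign if the titles are right. The library names also refer to cardiomyocytes, while the source is given as LV tissue.

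IGF-1 and IGF-2 are small secreted peptides that signal for growth and survival through the receptor tyrosine kinase IGF-1R. IGF-2R, which is also the mannose 6-phosphate receptor, has no kinase and carries IGF-2 to lysosomes. Secreted binding proteins hold most IGF outside the cell, prolong its life and limit or present it to the receptor, and proteases release it again. In the heart, IGF-1 is known for its part in the growth of cardiomyocytes.

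Counts on genes lay between 11449137 and 16239670 per library, and the 10 IGF genes took 0.0638% to 0.125% of them. No pair of libraries of a group agreed within sampling noise, so none was counted as a repeat deposit. *Flt1* had a normalized CPM of 56.9 to 84.3 in the WT2 and 144 to 169.6 in the dVEGFR1TK2 libraries. Reads were summed over all of *Flt1*, with or without the deleted domain, so this value cannot settle the labels. The summed normalized CPM of 9 cardiomyocyte markers was 57454 to 95457, and 0 of 7 adipocyte markers were expressed above the limit. WT2 replicate 2 had the lowest (57454) and dVEGFR1TK2 replicate 3 the highest (95457).

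To show where these genes are transcribed from, the 250 bases upstream of the transcription start are printed for *Igfbp7*, *Igf1r* and *Igfbp4*, the 3 members with the lowest p between the groups. They are from RefSeq on GRCm38.p6, 5′ to 3′ along the gene, with capitals marking a GC box (GGGCGG or its reverse complement CCGCCC) or a TATA box (TATAAA or TTTATA). The *Igfbp7* window is chr5:77408046-77408295 on the minus strand, that of *Igf1r* is chr7:67952007-67952256 on the plus strand and that of *Igfbp4* is chr11:99040994-99041243 on the plus strand. The *Igf1r* window lies upstream of the RefSeq start, while the GENCODE coordinates given below start further along, at 67952827.
*Igfbp7*: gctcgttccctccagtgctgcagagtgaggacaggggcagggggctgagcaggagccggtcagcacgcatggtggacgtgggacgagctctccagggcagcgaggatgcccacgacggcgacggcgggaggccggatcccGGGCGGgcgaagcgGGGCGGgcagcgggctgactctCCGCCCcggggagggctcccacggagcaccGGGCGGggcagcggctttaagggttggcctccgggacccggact
*Igf1r*: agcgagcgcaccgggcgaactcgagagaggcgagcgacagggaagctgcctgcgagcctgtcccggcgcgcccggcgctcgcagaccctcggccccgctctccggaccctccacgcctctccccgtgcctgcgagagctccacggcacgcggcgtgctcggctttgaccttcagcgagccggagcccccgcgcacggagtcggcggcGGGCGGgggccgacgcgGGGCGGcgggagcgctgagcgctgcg
*Igfbp4*: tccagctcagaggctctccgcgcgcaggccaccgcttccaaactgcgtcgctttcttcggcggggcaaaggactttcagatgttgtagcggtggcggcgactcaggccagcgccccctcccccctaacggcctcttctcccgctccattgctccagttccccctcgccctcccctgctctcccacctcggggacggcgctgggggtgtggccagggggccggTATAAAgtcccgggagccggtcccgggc
The *Igfbp7* window held 4 GC boxes and the *Igf1r* window 2, neither held a TATA box, and their GC content was 74.0% and 77.6%. The *Igfbp4* window, with a GC content of 69.2%, held no GC box and 1 TATA box that begins 28 bases before the start. Over 32851 such windows of all genes, 32.7% held a GC box, 12.4% a TATA box, and the median GC content was 52.4%. The 10 members have 14 windows, 4 of them for *Igf2* and 2 for *Igfbp2*. Of these 14, 6 held a GC box, in *Igf1r*, *Igf2*, *Igf2r*, *Igfbp2* and *Igfbp7*, and 2 a TATA box, in *Igfbp4* and *Igfbp6*. These matches describe the letters only.

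The level of the members spanned a wide range and was led by binding proteins. Levels were compared between genes as normalized CPM per kilobase of merged exons. *Igfbp7*, which encodes a secreted protein of vessels and matrix that binds IGFs only weakly, had the highest level at 254 ± 71.6 (SD, n = 8). *Igfbp4* followed at 28.8 ± 4.39, 8.84 times lower, and the ranges of both genes did not overlap. *Igf2r* (21.7 ± 1.66), *Igfbp5* (20.7 ± 5.22) and *Igfbp6* (18.7 ± 5.84) came next. The ranges of these neighbours overlapped, *Igfbp4* with *Igf2r* included, though *Igfbp4* was above *Igf2r* in each library. The order of *Igf2r* and *Igfbp5*, and that of *Igfbp5* and *Igfbp6*, changed between libraries. *Igfbp3*, whose product is the main IGF carrier of plasma, stood at 8.48 ± 2.48, and its range overlapped those of *Igfbp6* above and *Igf2* below. Within each library, *Igfbp3* nevertheless lay below *Igfbp6* and above *Igf2*.

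The ligands were low. *Igf2* had 4.71 ± 0.759 and *Igf1* 1.47 ± 0.285 normalized CPM per kilobase (SD, n = 8), and their ranges did not overlap. *Igf2* was the higher in each library. The lowest levels were those of *Igfbp2* (0.622 ± 0.330) and of the signaling receptor gene *Igf1r* (0.452 ± 0.113), which overlapped each other. *Igfbp2* also overlapped *Igf1*, which was the higher of both in each library. With the length of the longest transcript in place of merged exons, each gene kept its place in the order.

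**Figure D1:**
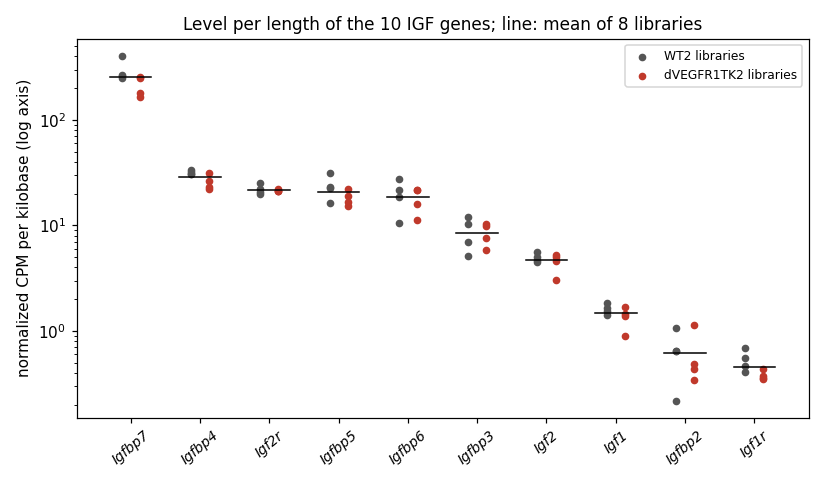
Normalized CPM per kilobase (log axis) of the 10 IGF genes in each of the 8 libraries, grey for WT2 and red for dVEGFR1TK2, with a line at the mean of all 8. *Igfbp7* lies apart at a mean of 254. The means of *Igfbp4*, *Igf2r*, *Igfbp5* and *Igfbp6* lie close together, between 28.8 and 18.7, with single libraries from 10.6 to 33.7. *Igf1r* is last at a mean of 0.452.

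Of the summed level per kilobase of the 6 binding protein genes, *Igfbp7* made up 77.7% ± 1.82 (SD, n = 4) in the WT2 and 74.9% ± 2.34 (SD, n = 4) in the dVEGFR1TK2 LVs. *Igfbp4* took 8.68% ± 1.73 and 9.14% ± 0.838, *Igfbp5* 6.09% ± 0.694 and 6.50% ± 0.783, and *Igfbp6* 5.11% ± 1.27 and 6.27% ± 1.69. *Igfbp3* took 2.27% ± 0.813 and 3.003% ± 0.732, and *Igfbp2* at most 0.353% in any library. The make-up of the binding protein transcripts thus held *Igfbp7* first in each library, at 72.0% to 79.7%. The summed level itself was 318 to 505 in the WT2 and 221 to 338 in the dVEGFR1TK2 libraries, which overlap.

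Between the groups, none of the 10 genes was called. All 10 log2 fold changes were negative, with a median of −0.21, where 50.3% of all genes tested were negative and the median was −0.00. The number of negative members was 7 without WT2 replicate 2, without dVEGFR1TK2 replicate 3 or without both, where *Igfbp2*, *Igfbp3* and *Igfbp6* turned, and 8 to 10 with any other library left out. Calls required an FDR (Benjamini-Hochberg) below 0.1 and a change of 1.5-fold or more, and 0 of 10 members met this by edgeR's quasi-likelihood test, by its likelihood ratio test or by DESeq2, against 0.00738% of all genes by the first. At an unadjusted p under 0.05, 3 members were lower by each of these tests, *Igfbp7*, *Igf1r* and *Igfbp4*. Over all genes tested, 5.64% were lower at this p by the quasi-likelihood test. In none of the 10 members were the groups apart, against 4.98% of all genes. The count of 3 fell to 0 without WT2 replicate 2 and dVEGFR1TK2 replicate 3, a pair chosen after seeing the data. The former was the highest library for *Igf1r* and *Igfbp7*, and the latter the lowest for *Igfbp4* and *Igfbp7*. Leaving out both therefore shrinks these differences by construction, with fewer libraries left.

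Among the ligands, *Igf1* (ENSMUSG00000020053, chromosome 10 of GRCm38, 87858265 to 87937042, plus strand) had a normalized CPM of 15.2, 18.3, 13.9 and 16.2 in WT2 replicates 1 to 4. In the dVEGFR1TK2 replicates 1 to 4, it was 13.6, 14.3, 8.77 and 16.5. Of the latter, replicates 1 and 3 lay below all WT2 libraries, replicate 3 by far, and replicates 2 and 4 lay within their range. The means were 15.9 ± 1.85 and 13.3 ± 3.26 (SD, n = 4 each), which is a log2 fold change of −0.26 (95% interval −0.64 to 0.12, FDR = 0.69, edgeR quasi-likelihood). It was −0.11 without dVEGFR1TK2 replicate 3 and −0.03 without WT2 replicate 2 as well. The lower end of the interval stands for a level of 0.64 times that of the WT2 group.

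*Igf2* (ENSMUSG00000048583, chromosome 7, 142650766 to 142666816, minus strand) encodes the ligand that is best known from fetal growth and is expressed from the paternal allele. Its normalized CPM was 25.7, 27.1, 28.6 and 32.1 in the WT2 replicates. It was 26.4, 17.5, 29.9 and 28.6 in the dVEGFR1TK2 replicates, where replicate 2 alone lay below all WT2 libraries. The GENCODE gene *Gm49394* shares 3596 exon bases with *Igf2* on the same strand. It has no row in the count table, so it could not be analysed here. The log2 fold change was −0.14 (95% interval −0.48 to 0.19, FDR = 0.809, edgeR quasi-likelihood), and it was −0.00 without dVEGFR1TK2 replicate 2 and −0.23 without replicate 3 of that group. Its neighbour *H19*, the noncoding RNA of the same imprinted domain 72622 bases away, had 6.66 ± 1.65 and 7.66 ± 1.96 normalized CPM (SD, n = 4 each), which is a log2 fold change of 0.20 with an FDR = 0.815 from the same test. *Ins2*, an insulin gene on the other side, had no count in any library, where a count of 0 allows a CPM of up to 0.185 to 0.262 per library.

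Of the receptors, *Igf1r* (ENSMUSG00000005533, chromosome 7, 67952827 to 68233668, plus strand) encodes the receptor through which both ligands signal. It was covered by 66 to 158 reads per library. Its normalized CPM was 6.89, 11.5, 7.73 and 9.20 in the WT2 replicates and 7.31, 5.86, 6.00 and 6.30 in the dVEGFR1TK2 replicates. Of the latter, 3 of 4 lay below all WT2 libraries, and replicate 1 lay above WT2 replicate 1. The means of 8.82 ± 2.01 and 6.37 ± 0.656 (SD, n = 4 per group) gave a log2 fold change of −0.47 (SE 0.18, 95% interval −0.85 to −0.08). The unadjusted p of edgeR's quasi-likelihood test was 0.0213, with an FDR = 0.505, and the exact permutation test gave p = 0.0571 (2-sided, smallest possible 0.0286). Without WT2 replicate 2, the highest library, the log2 fold change was −0.32, and without this library and dVEGFR1TK2 replicate 3 it was −0.29. Without dVEGFR1TK2 replicate 2, the unadjusted p of the same edgeR test was 0.0526.

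*Igf2r* (ENSMUSG00000023830, chromosome 17, 12682406 to 12769664, minus strand) was the steadiest member. Its normalized CPM was 204, 186, 237 and 193 in the WT2 and 196, 197, 207 and 198 in the dVEGFR1TK2 replicates. The 4 dVEGFR1TK2 values lay within the WT2 range. The log2 fold change of −0.04 had the narrowest 95% interval of the 10 members, −0.25 to 0.17 (FDR = 0.931, edgeR quasi-likelihood). Within groups, the biological coefficient of variation of *Igf2r* was 10.9%, against a median of 14.03% over all genes tested. *Airn*, the noncoding RNA transcribed across *Igf2r* from the opposite strand, shares no exon base with it and had 64 to 84 reads per library.

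**Figure D2:**
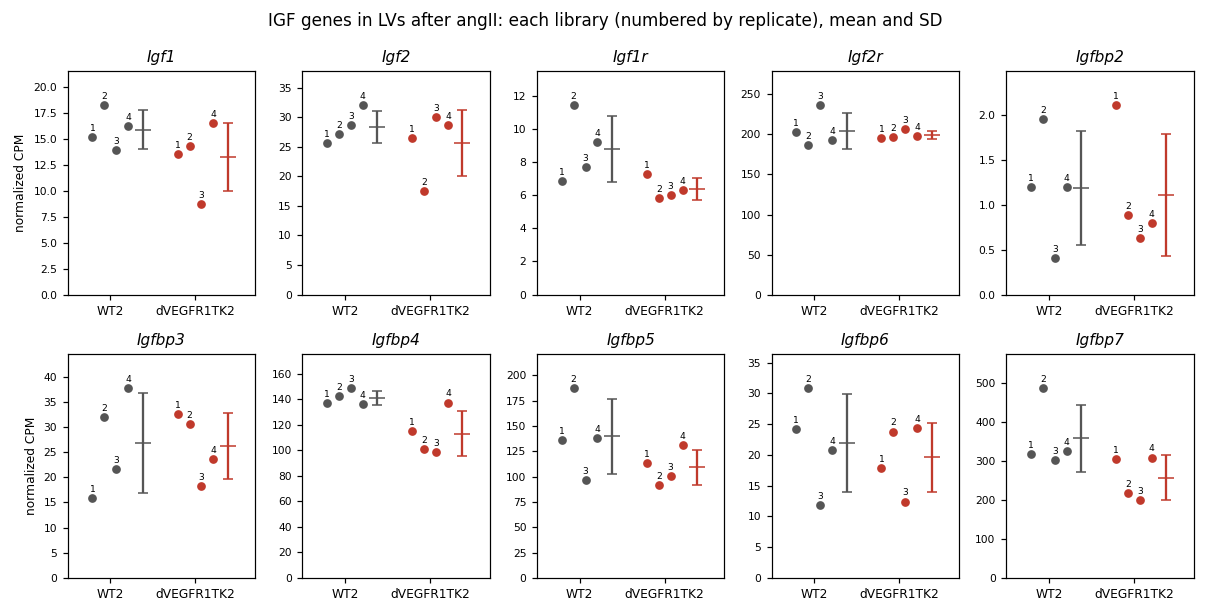
Normalized CPM of each IGF gene (1 panel per gene, axes from 0) in the 4 WT2 libraries (grey) and the 4 dVEGFR1TK2 libraries (red), numbered by replicate, with the mean and SD beside them. The groups overlap in each panel, and WT2 replicate 2 is the highest library for *Igf1*, *Igf1r*, *Igfbp5*, *Igfbp6* and *Igfbp7*.

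Among the binding proteins, *Igfbp7* (ENSMUSG00000036256, chromosome 5, 77349240 to 77408041, minus strand) had the largest difference with all libraries, though not without WT2 replicate 2, where *Igfbp4* was at −0.31 and *Igfbp7* at −0.29. Its normalized CPM was 318, 486, 303 and 325 in the WT2 replicates and 305, 217, 199 and 308 in the dVEGFR1TK2 replicates. Replicates 2 and 3 of the latter were low, replicates 1 and 4 lay at the lower edge of the WT2 range, and WT2 replicate 2 stood far above the rest. The means of 358 ± 86.0 and 257 ± 57.5 (SD, n = 4 per group) gave a log2 fold change of −0.48 (SE 0.19, 95% interval −0.88 to −0.07). By edgeR's quasi-likelihood test the unadjusted p was 0.0251 and the FDR = 0.506, and the exact permutation test gave p = 0.0857. Without WT2 replicate 2, the log2 fold change was −0.29 with an unadjusted p = 0.0873 from the same edgeR test, and without dVEGFR1TK2 replicate 3 in addition it was −0.19. It was −0.41 without dVEGFR1TK2 replicate 2 and −0.37 without replicate 3, with an unadjusted edgeR p of 0.072 and 0.0731. *Polr2b*, which shares 85 exon bases with *Igfbp7* on the opposite strand, had a log2 fold change of 0.06.

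*Igfbp4* (ENSMUSG00000017493, chromosome 11, 99041244 to 99054392, plus strand), whose product inhibits IGF until the protease PAPP-A cleaves it, was even among the WT2 libraries at 137, 142, 149 and 136 normalized CPM. The dVEGFR1TK2 libraries had 115, 101, 98.4 and 137. Thus 3 of 4 lay below all WT2 libraries and replicate 4 lay among them. The means were 141 ± 5.79 and 113 ± 17.9 (SD, n = 4 each), which is a log2 fold change of −0.32 (SE 0.11, 95% interval −0.56 to −0.07). The unadjusted p from edgeR's quasi-likelihood test, 0.0150, was the lowest of the 10 members, the FDR = 0.476, and the exact permutation test gave p = 0.0857. With each single library left out, the unadjusted p of this gene stayed under 0.05, and with WT2 replicate 2 and dVEGFR1TK2 replicate 3 both left out it was 0.0741. *Pappa*, the gene of that protease, had 4 to 14 reads per library and did not pass the filter.

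*Igfbp5* (ENSMUSG00000026185, chromosome 1, 72857932 to 72874884, minus strand) encodes the most conserved of the binding proteins, which also binds matrix. It had 136, 187, 97.0 and 138 normalized CPM in the WT2 and 113, 91.6, 101 and 131 in the dVEGFR1TK2 replicates. The groups overlapped through the low WT2 replicate 3. The log2 fold change was −0.36 (95% interval −0.74 to 0.03, FDR = 0.592, edgeR quasi-likelihood), and it was −0.18 without WT2 replicate 2 and −0.50 without WT2 replicate 3, where the unadjusted edgeR p was 0.00629. Without dVEGFR1TK2 replicate 4, it was −0.46 with an unadjusted edgeR p of 0.0346. *Igfbp2* (ENSMUSG00000039323) lies 5457 bases away on the opposite strand, its 3′ end facing that of *Igfbp5*, from 72824503 to 72852474. Per kilobase, *Igfbp5* stood at 20.7 and *Igfbp2* at 0.622. *Igfbp2* had only 6 to 27 reads per library, so that the lowest count of 6 has an exact Poisson 95% interval of 2.202 to 13.1 for counting error alone. Its normalized CPM was 1.20, 1.96, 0.404 and 1.20 in the WT2 and 2.11, 0.888, 0.632 and 0.797 in the dVEGFR1TK2 replicates. The 95% interval of the log2 fold change ran from −1.16 to 0.97 around −0.09, and the biological coefficient of variation was 40.3%, so no difference was detectable at this depth and spread. With single libraries left out, the value lay between −0.61 and 0.27.

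*Igfbp3* (ENSMUSG00000020427, chromosome 11, 7206086 to 7213923, minus strand) had 15.9, 32.0, 21.6 and 37.7 normalized CPM in the WT2 and 32.5, 30.6, 18.3 and 23.6 in the dVEGFR1TK2 replicates. Both groups spread over the same range, and the log2 fold change was −0.03 (95% interval −0.58 to 0.52, FDR = 0.981, edgeR quasi-likelihood). With single libraries left out, it lay between −0.21 and 0.18. Its neighbour *Igfbp1*, 3539 bases away and known as a gene of the liver, had no count in any library. *Igfbp6* (ENSMUSG00000023046, chromosome 15, 102144362 to 102149511, plus strand) encodes the binding protein that prefers IGF-2. It had 24.3, 30.8, 11.8 and 20.8 normalized CPM in the WT2 and 17.9, 23.8, 12.4 and 24.3 in the dVEGFR1TK2 replicates. Replicate 3 was the lowest of each group, and the log2 fold change was −0.16 (95% interval −0.75 to 0.43, FDR = 0.888 from the same test). For *Igfbp6*, it was 0.05 without WT2 replicate 2, 0.00 without dVEGFR1TK2 replicate 3 and −0.37 without WT2 replicate 3. *Igfbp3* and *Igfbp6* were among the variable genes of these hearts, with a biological coefficient of variation of 24.8% and 26.6%.

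The differences between libraries ran through several members at once. WT2 replicate 2 was the highest library for 5 of the 10 genes and above the mean of the 8 libraries (log2 scale) for 9 of them. WT2 replicate 4 was also above the mean for 9, by a smaller median (0.18 against 0.48), and had the lowest fibroblast (2746) and leukocyte (498) sums of its group. dVEGFR1TK2 replicates 2 and 3 were each the lowest for 3 genes, the former for *Igf2*, *Igf1r* and *Igfbp5*, the latter for *Igf1*, *Igfbp4* and *Igfbp7*. WT2 replicate 2 had, beside the lowest cardiomyocyte sum, the highest summed normalized CPM of 9 fibroblast markers (3496) and of 10 leukocyte markers (636). dVEGFR1TK2 replicate 3 had the lowest of both, 1739 and 347. The sums of markers of endothelial cells and of vessel wall (mural) cells had other extremes. Both were highest in WT2 replicate 3 (2301 and 2011) and lowest in dVEGFR1TK2 replicate 2 (1678 and 1018). In bulk tissue, fewer cells of a type and less RNA per cell cannot be told apart.

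By group, the fibroblast sum was 2746 to 3496 in the WT2 and 1739 to 3195 in the dVEGFR1TK2 libraries, and 9 of 9 fibroblast genes had a negative log2 fold change (0 at an unadjusted p under 0.05). The leukocyte sum was 498 to 636 and 347 to 516, with 9 of 10 genes negative, 1 of them at an unadjusted p under 0.05. The sum of 9 endothelial markers was 1822 to 2301 and 1678 to 1821, which do not overlap but nearly meet, with 8 of 9 genes negative, 3 of them at an unadjusted p under 0.05. The sum of 9 markers of mural cells, the pericytes and smooth muscle cells of vessels, was 1424 to 2011 and 1018 to 1547, with 7 of 9 negative and 4 of them at this p. Of the 9 cardiomyocyte markers, 7 had a positive log2 fold change, 2 of them at this p, and the median was 0.16. Over all genes tested, 5.64% were lower and 3.32% higher at this p. Groups were apart in 3 mural, 1 cardiomyocyte and 0 endothelial, fibroblast or leukocyte genes, against 4.98% of all genes. No marker of these 5 lists was at 0 in all libraries. The part of these cells in the lower values of *Igfbp7*, *Igf1r* and *Igfbp4* was not tested.

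**Figure D3:**
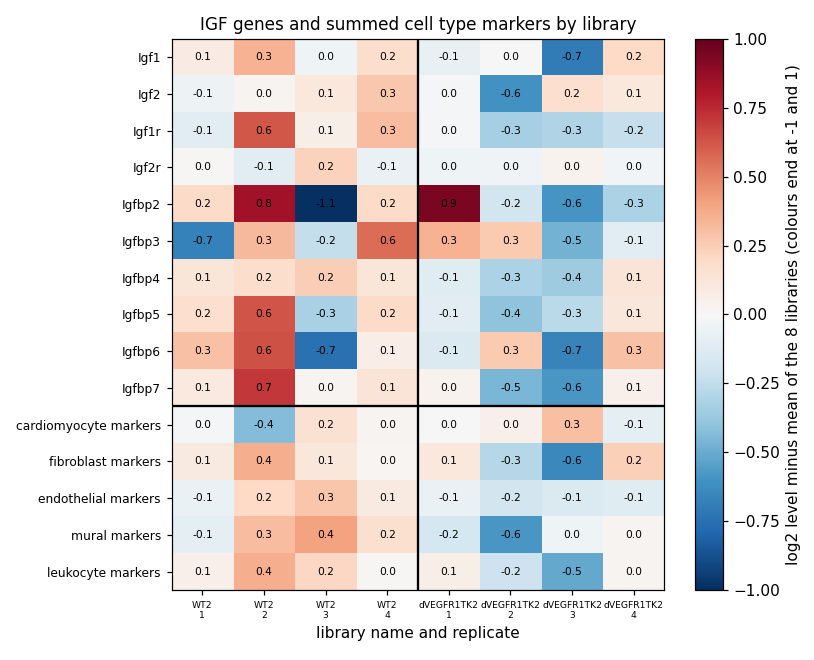
Log2 level of each IGF gene (upper rows) and log2 summed level of 5 lists of cell type markers (lower rows) in the 8 libraries, each minus its mean over the 8, in blue below and red above it. WT2 replicate 2 is red for most IGF genes and for fibroblast and leukocyte markers, dVEGFR1TK2 replicate 3 is blue for most of them, and the cardiomyocyte row shows the opposite.

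The wider IGF system was described with a list of 30 further genes, of which 21 passed the filter. Their median log2 fold change was 0.05, with 7 negative and 14 positive. None had an FDR under 0.1 by edgeR's quasi-likelihood test, its likelihood ratio test or DESeq2. By the first, 4 of 21 had an unadjusted p under 0.05, where 8.96% of all genes did (3 by the likelihood ratio test and 4 by DESeq2). *Grb14* and *Ghr* were higher (3.32% of all genes were, at this p) and *Stc1* and *Lrp1* lower. The other 9 genes, below the filter, include *Irs4*, *Igfbp1* and *Ins2*, which had no count in any library.

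*Grb14*, an adaptor that inhibits the insulin receptor, had a normalized CPM of 170, 125, 130 and 152 in the WT2 and 176, 191, 176 and 176 in the dVEGFR1TK2 replicates. All dVEGFR1TK2 libraries lay above all WT2 libraries (exact permutation test, p = 0.0286, the smallest possible), and the log2 fold change was 0.31 (SE 0.11, FDR = 0.468, edgeR quasi-likelihood). *Ghr*, the growth hormone receptor, through which growth hormone induces *Igf1*, had 93.2, 85.6, 88.7 and 98.9 against 105, 102, 111 and 103 normalized CPM. These groups were apart as well (exact permutation test, p = 0.0286), with a log2 fold change of 0.20 (SE 0.08, FDR = 0.522, edgeR quasi-likelihood). In 2 of the 21 tested genes of the wider list the groups were apart, against 4.98% of all genes. Any gene with groups apart has this permutation p, and groups apart was also a reason to name a list gene. The permutation p is therefore no separate evidence for *Grb14* and *Ghr*. *Ghr* was at an unadjusted p under 0.05 in 6 of 16 alternatives and *Grb14* in 15 of 16.

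*Stc1*, whose product stanniocalcin-1 inhibits the protease PAPP-A, had 7.75 ± 2.03 and 5.53 ± 0.778 normalized CPM (SD, n = 4 each), which is a log2 fold change of −0.48 (FDR = 0.522, edgeR quasi-likelihood). *Lrp1*, an endocytic receptor that also takes up IGFBP-3, had 216 ± 23.9 and 168 ± 35.3, a log2 fold change of −0.36 (FDR = 0.521 from the same test). Both overlapped between the groups. Each was at an unadjusted p under 0.05 in 11 of 16 alternatives, over which *Stc1* lay between −0.59 and −0.30 and *Lrp1* between −0.49 and −0.17. The insulin receptor gene *Insr* was at 143 ± 20.0 and 147 ± 12.9 normalized CPM, and its substrate gene *Irs1* at 44.6 ± 7.29 and 46.7 ± 8.50 (SD, n = 4 per group). The log2 fold changes of *Insr* and *Irs1* were 0.04 (95% interval −0.21 to 0.29) and 0.06 (95% interval −0.25 to 0.38).

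**Figure D4:**
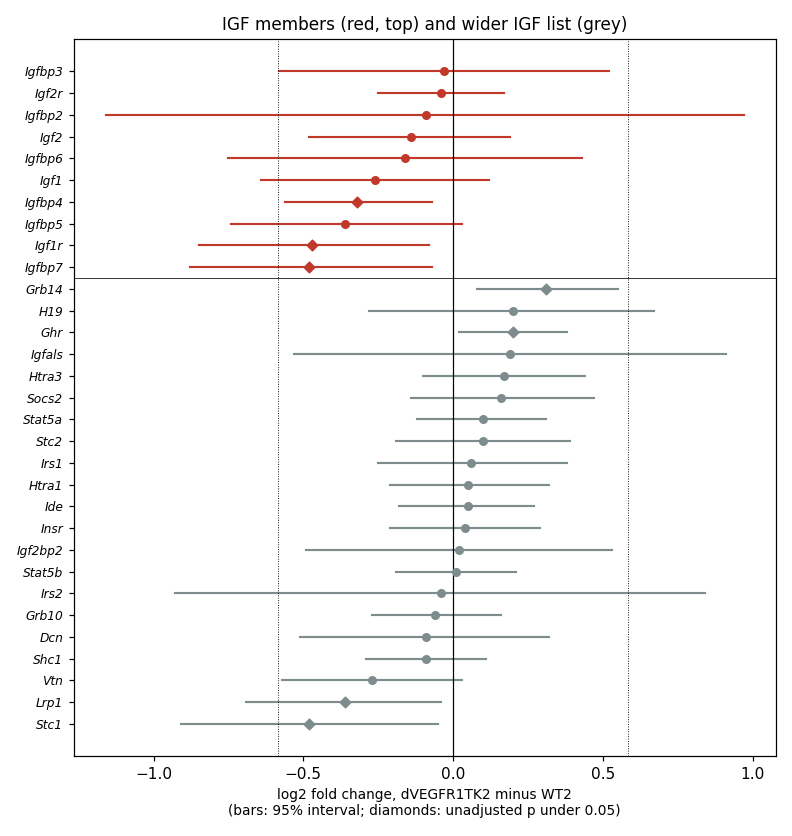
Log2 fold change of the 10 IGF genes (red) and the 21 tested genes of the wider list (grey), dVEGFR1TK2 against WT2, with 95% intervals, diamonds for an unadjusted p under 0.05 and dotted lines at a 1.5-fold change. The 10 red points lie left of 0 with intervals that mostly cross it, while the grey points lie on both sides, from *Stc1* at −0.48 to *Grb14* at 0.31.

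The genes most like the ligands in their pattern over the 8 libraries were found among all genes tested by the root mean square difference of log2 values scaled to mean 0 and SD 1. For *Igf1*, they were *Gng12* (0.223), *Wisp2* (0.258) and *Tll1* (0.26), against a median of 1.401 over all genes. For *Igf2*, they were *Pcbd1* (0.189), *Nxpe4* (0.225) and *Arhgap25* (0.226), against a median of 1.42. With 8 libraries and 13542 genes to choose from, these names are a description.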

How the data were processed

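Total RNA of LVs was sequenced as paired-end libraries. The paper describes poly-A selection and a stranded kit, and the labels describe depletion of ribosomal RNA. The authors trimmed reads with Trim Galore 0.4.4 (Phred cutoff 30), aligned them to GRCm38 with STAR 2.5.4b and counted them with featureCounts on GENCODE M16, and deposited the raw counts of all libraries in 1 table. STAR kept reads with up to 10 alignments, and how featureCounts treated these and strand is not given in the sources used here. Without strand, the reads of a gene and its antisense partner cannot be told apart.

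Genes reaching a CPM of 1 in 2 or more libraries were kept, as in the study. Their counts were normalized with TMM factors and tested in R 4.3.3 with the quasi-likelihood test of edgeR 4.0.16 over 13542 genes, without covariates. P-values were adjusted over these genes (Benjamini-Hochberg, FDR). The authors' likelihood ratio test and DESeq2 1.42.0 were alternatives, as were RLE factors, total counts, other filters, libraries left out and the replicate number as a block. Log2 values used a prior count of 2. The exact permutation test used all 70 splits into 4 and 4. The test was checked on simulated counts. Of 46040 gene identifiers, 849 are missing from GENCODE M21 of GRCm38, which gave coordinates and lengths. Upstream sequences are from RefSeq. The study gives 4 LVs per group, while the labels tie no library to an animal, so p measures the spread between these libraries. Depth was 11449137 to 16239670 counts per library.

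The members and the lists were chosen with earlier results of these data known. The named genes are the 10 members, list genes with an FDR under 0.1, an unadjusted p under 0.05 or groups apart, genes next to a member, and the 3 genes most like *Igf1* and *Igf2* in pattern. *Pappa*, *Irs4*, *Insr* and *Irs1* were added after their values were seen. Of the fixed marker lists, those for mesothelial cells, atrium, red blood cells and skeletal muscle gave median log2 fold changes of −0.08, 0.02, −0.37 and −0.07.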

Additional observations from a re-analysis of the deposited data

Results flagged for a closer look

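The normalized CPM of *Igfbp7* in WT2 replicate 2 was 486, with the nearest other library of its group at 325. The gap took a share of 0.880 of the range of the 4 libraries, above Dixon's critical value of 0.829. Over the 10 members in both groups, 20 groups were examined and 1 stood out, and chance gives about 1 in 20. The same library had the lowest summed cardiomyocyte markers (57454) and the highest fibroblast markers (3496), whose part in this value was not tested.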

How the results depend on the processing

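No member was called under any of 17 alternatives, and the order of the levels per kilobase was the same for all 10 genes with the longest transcript. The number of members with an unadjusted p under 0.05, 3, ranged from 1 to 4 with each library left out (1 without replicate 2 of either group). Without WT2 replicate 2 and dVEGFR1TK2 replicate 3, a setting chosen after seeing the data, it was 0. For the wider list, 4 became 2 with total counts and with both of these libraries left out, and 2 to 5 with each library left out. The number of members with an exact permutation p under 0.05, 0, ranged from 0 to 1 with each library left out. Of 160 log2 fold changes (10 members, 16 alternatives), 146 kept their direction. Without both libraries, *Igfbp2*, *Igfbp3* and *Igfbp6* turned to 0.46, 0.21 and 0.22. With single libraries left out, *Igf2r* ranged from −0.08 to 0.03 (−0.10 without both), *Igfbp2* from −0.61 to 0.27, *Igfbp3* from −0.21 to 0.18 and *Igfbp6* from −0.37 to 0.05. The cause of these changes was not tested, and each of these fits also had fewer libraries. With the replicate number as a block, *Igfbp3* was at 0.00, 3 members had an unadjusted p under 0.05 and no other direction turned. Same-numbered libraries correlated in their deviations at −0.029, 0.029, 0.343 and −0.0555 for replicates 1 to 4. Replicate 3 also had the highest cardiomyocyte sum of each group (86083 and 95457). Correlations of differently numbered libraries are not given here for comparison, so whether a number stands for a shared pair or batch is not known. *Igfbp2* had the lowest depth, 6 to 27 reads per library.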

Other observations

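Per kilobase, *Igf2* exceeded *Igf1* by a ratio of 2.12 to 3.55 in 7 libraries and of 5.91 in dVEGFR1TK2 replicate 3, in which *Igf1* was lowest. The ratio of *Igf2r* to *Igf1r* per kilobase was 53.3, 29.3, 55.3 and 37.8 in the WT2 and 48.2, 60.7, 62.1 and 56.7 in the dVEGFR1TK2 replicates, which overlap. The summed binding proteins exceeded the summed ligands 36.1 to 76.7 times. Of the former sum, *Igfbp7*, whose product binds IGFs only weakly, made up 72.0% to 79.7%. These ratios were not tested between the groups.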
